A study of Mus musculus with 6 samples.

Results

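The genes examined were 9 genes of kidney peptide hydrolysis and of the renin-angiotensin system, chosen by symbol from the 46095 genes of the count table. They are Mme, Anpep, Enpep, Dpp4, Mep1a, Mep1b and Ace, which encode peptidases of the brush border membrane, and Ren1 and Agt, which encode renin and its substrate. All 9 passed the filter on low counts that left 14611 genes for testing. The choice was made by symbol, but with earlier results of these data known. The data are RNA-seq counts from primary renal tubular epithelial cells (PTECs) freshly isolated from mice of 10 weeks of age, 3 libraries under the genotype label VHL-KO (replicates 1, 2 and 4) and 3 under VHL-KO;SETD2-KO (replicates 2, 3 and 4). In the study both genotypes are Ksp Cre; VHL fl/fl, so that Vhl was floxed in all 6 mice, and the VHL-KO;SETD2-KO mice are Setd2 fl/fl as well. Cre was driven by the promoter of Cdh16 (Ksp-cadherin), which is active in tubular epithelium, so cells without Cre keep both genes. No library of a wild-type mouse was used here, and the comparison is between PTECs of mice with these 2 genotypes. Which share of the cells, or of the proximal tubule cells, carried either deletion was not tested.

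The brush border is the dense carpet of microvilli on the luminal face of the proximal tubule cell. Its membrane peptidases cut peptides that pass the glomerular filter, so that the tubule can take up the amino acids. The same enzymes handle angiotensins. Renin, released by juxtaglomerular cells of the afferent arteriole, cuts angiotensinogen to angiotensin I, angiotensin-converting enzyme makes angiotensin II, and the aminopeptidases A and N trim it further. Angiotensinogen reaches the kidney mostly from the liver, and the proximal tubule also makes some.

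Mep1a, Ace and Anpep were lower in every library labelled VHL-KO;SETD2-KO than in every library labelled VHL-KO, by 2.86-fold, 4.19-fold and 2.85-fold in the fit (log2 fold changes of -1.52, -2.07 and -1.51). Dpp4 went the other way, 2.39-fold higher with no overlap between the labels (log2 fold change of 1.26). Enpep and Mme had log2 fold changes above 0 (0.78 and 0.39), and their libraries overlapped. Summed markers of the proximal tubule, the cell that carries the brush border, were at 33660 to 44010 CPM (counts scaled to a common library size with TMM factors) under VHL-KO and at 13290 to 17050 CPM under VHL-KO;SETD2-KO. Kap and Slc34a1 made the largest parts of that sum under VHL-KO. In bulk RNA, fewer cells of a type and less RNA per cell cannot be told apart. In the fit to all 6 libraries none of the 9 genes reached an adjusted p under 0.05 (edgeR's quasi-likelihood test, Benjamini-Hochberg adjustment over 14611 genes). The adjusted p was 0.625 for Mep1a, Ace, Anpep, Dpp4, Mep1b and Agt, 0.693 for Enpep, 0.700 for Ren1 and 0.854 for Mme.

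The fit called 0% of all tested genes higher and 0.00684% lower at an adjusted p under 0.05, so the 0 members called stand beside 1 call among 14611 genes. At an unadjusted p under 0.05 and a change of at least 1.5-fold, 5 of the 9 members were lower (Anpep, Mep1a, Mep1b, Ace and Agt) and 0 were higher, beside 4.68% of all tested genes lower and 2.65% higher. The labels did not overlap for 3 members that were lower and 1 that was higher, beside 11.0% and 9.62% of all tested genes. DESeq2's Wald test on the same 6 libraries gave an adjusted p for 1292 genes and called 3 members lower, Ace (adjusted p = 0.0160), Mep1a (0.0284) and Anpep (0.0474), and 0 members higher, beside 3.87% of the genes with an adjusted p lower and 0.0774% higher. It gave no adjusted p for Mme, Mep1b, Ren1 and Agt. The median log2 fold change was -1.51 over the 9 members and 0.01 over all tested genes. Without VHL-KO replicate 4 the median over the members was -0.53, and in a fit to 4 libraries described further on it was -0.70.

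The libraries were checked before the members were read. Setd2 had 1179, 799 and 132 counts in VHL-KO replicates 1, 2 and 4 and 1499, 1019 and 1429 in VHL-KO;SETD2-KO replicates 2, 3 and 4. The counts thus do not show the loss that the second label names (log2 fold change 0.52, standard error 0.64, edgeR's unadjusted p = 0.438). Nor do they show a rise, since VHL-KO replicate 4, at 12.35 CPM, lowers the VHL-KO mean. VHL-KO replicates 1 and 2 were at 71.5 and 73.9 CPM, within the 57.4 to 89.6 CPM of the VHL-KO;SETD2-KO libraries. The study reports reduced SETD2 in mice of this genotype, by Western blot against wild-type mice and by RT-qPCR against VHL-KO mice. It also reports less of the histone mark H3K36me3 in their tubules by immunohistochemistry. Whether the sequenced mice were among those is not stated. Counts per gene do not separate the floxed exons from the rest, and every library is named here by its label. VHL-KO replicate 4 stood apart from the other 5 libraries. Mitochondrially encoded genes took 11.3% of its counts and 25.9% to 36.4% of theirs, and its level of a gene followed the gene's GC content. VHL-KO;SETD2-KO replicate 3 was the only library with Xist (659 CPM, at most 0.278 CPM in the others) and had the lowest Kap and Slc7a13, genes known for higher levels in male than in female mouse proximal tubules. Results that rest on either library are therefore also given without it. In these CPM 3 counts, taken as the floor, were 0.159 to 0.281 CPM.

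The promoters of 4 members are shown because they stand for both directions, Mep1a, Ace and Anpep for the lower group and Dpp4 for the higher one. Each is the RefSeq sequence of 250 bases before to 50 bases after a transcription start in GRCm38.p6, the build of the counts, and is written 5′ to 3′ on the gene's strand. Capitals mark CAAAGT or its reverse complement, the core of the sites bound by HNF4 factors, searched on both strands. The windows are chr17:43502724-43503023 on the minus strand for Mep1a and chr11:105967698-105967997 on the plus strand for the somatic start of Ace. Those of Anpep and Dpp4, both on the minus strand, are chr7:79848161-79848460 and chr2:62412182-62412481. On the minus strand the Mep1a gene begins at 43504143, outside its window, so the start used for it is internal to the gene. The Dpp4 gene begins at 62412315, inside its window but upstream of the start used, so that start is internal as well.
Mep1a: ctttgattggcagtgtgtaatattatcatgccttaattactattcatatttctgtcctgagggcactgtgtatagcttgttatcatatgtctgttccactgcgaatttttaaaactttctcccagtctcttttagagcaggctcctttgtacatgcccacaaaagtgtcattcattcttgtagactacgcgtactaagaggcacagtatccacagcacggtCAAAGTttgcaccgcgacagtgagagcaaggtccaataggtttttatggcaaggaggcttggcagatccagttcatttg
Ace: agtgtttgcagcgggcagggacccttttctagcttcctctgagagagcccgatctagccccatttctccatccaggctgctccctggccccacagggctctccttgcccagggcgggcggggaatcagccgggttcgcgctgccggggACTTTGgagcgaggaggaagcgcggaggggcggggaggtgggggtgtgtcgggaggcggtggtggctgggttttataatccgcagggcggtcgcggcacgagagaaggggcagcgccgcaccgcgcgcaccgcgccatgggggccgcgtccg
Anpep: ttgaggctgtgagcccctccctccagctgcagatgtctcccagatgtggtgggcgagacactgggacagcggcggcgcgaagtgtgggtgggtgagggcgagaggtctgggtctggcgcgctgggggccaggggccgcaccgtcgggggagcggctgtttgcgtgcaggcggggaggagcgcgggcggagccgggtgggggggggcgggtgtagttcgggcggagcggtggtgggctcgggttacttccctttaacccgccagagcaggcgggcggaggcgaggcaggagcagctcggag
Dpp4: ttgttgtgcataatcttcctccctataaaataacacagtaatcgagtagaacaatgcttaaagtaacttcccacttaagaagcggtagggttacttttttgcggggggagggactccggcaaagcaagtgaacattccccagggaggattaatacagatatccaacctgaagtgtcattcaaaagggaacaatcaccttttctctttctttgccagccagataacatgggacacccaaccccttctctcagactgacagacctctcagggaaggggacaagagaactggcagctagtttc

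The Mep1a window held 1 match at position -29 from its internal start, and the Ace window 1 match at -102. The Anpep and Dpp4 windows held 0. The table had promoters for 8 of the 9 members, 11 windows in all. CAAAGT was in 4 of these 11, in windows of Ace, Mep1a and Mme, beside 14.35% of 32851 promoters of the same length. GTTAAT, a core of the HNF1 motif, was searched the same way and was in 0 of 11, beside 7.10% of all promoters. The Ace and Anpep windows were rich in G and C (69.7% and 72.3%), and those of Mep1a and Dpp4 were not (42.3% and 45.3%), with a median of 52.7% over all promoters. Mep1a and Anpep, which were both lower, thus had windows of unlike composition. These matches are letters in a window and were not tested as binding sites.

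Mep1a, on chromosome 17 at 43474324 to 43504143, encodes meprin alpha, a zinc endopeptidase of the brush border that is also shed into the lumen. Its level was 1281, 1355 and 1395 CPM in VHL-KO replicates 1, 2 and 4 and 478, 355 and 577 CPM in VHL-KO;SETD2-KO replicates 2, 3 and 4. The 3 VHL-KO libraries lay close together, replicate 4 included, and all of them were above all of the others. The means were 1344 ± 57.7 CPM (SD, n = 3) and 470 ± 111 CPM (SD, n = 3). The log2 fold change was -1.52 (standard error 0.43, 95% interval -2.50 to -0.53, edgeR's unadjusted p = 0.00738). Among the 7 peptidases it is the one whose fold change moved least with the library left out, from -1.67 to -1.34 over the 6 fits that each left out 1 library. The -1.34 was without VHL-KO;SETD2-KO replicate 3.

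Mep1b encodes meprin beta, the membrane-anchored partner with which meprin alpha pairs. It was at 52.5, 81.4 and 26.8 CPM in VHL-KO replicates 1, 2 and 4 and at 18.7, 16.6 and 29.3 CPM in VHL-KO;SETD2-KO replicates 2, 3 and 4. Here the labels overlapped, because VHL-KO replicate 4 lay below VHL-KO;SETD2-KO replicate 4. The means were 53.6 ± 27.3 and 21.5 ± 6.81 CPM (SD, n = 3 each), and the log2 fold change was -1.32 (standard error 0.51, edgeR's unadjusted p = 0.0311). Without VHL-KO replicate 4 it was -1.64 with no overlap (adjusted p = 0.0869), a fit in which 21.4% of all tested genes were lower and 20.1% higher without overlap. It was -0.88 without VHL-KO replicate 2, which held the highest level, and -1.16 without VHL-KO;SETD2-KO replicate 3. The count ratio of Mep1a to Mep1b within a library, which does not depend on scaling, was 24.4, 16.6 and 52.0 under VHL-KO and 25.6, 21.4 and 19.7 under VHL-KO;SETD2-KO. The ratio overlapped between the labels (two-sided exact permutation test, p = 0.8, where 0.1 is the smallest p that 3 against 3 libraries allow).

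Ace, on chromosome 11 at 105967948 to 105989964, encodes the dipeptidyl carboxypeptidase that makes angiotensin II and breaks down bradykinin. It was at 258, 250 and 591 CPM in VHL-KO replicates 1, 2 and 4 and at 89.5, 57.4 and 115 CPM in VHL-KO;SETD2-KO replicates 2, 3 and 4. The lowest VHL-KO library was above the highest VHL-KO;SETD2-KO library, and VHL-KO replicate 4 was 2.32-fold above the mean of replicates 1 and 2. The means were 366 ± 194 and 87.5 ± 29.1 CPM (SD, n = 3 each). The log2 fold change was -2.07 (standard error 0.53, 95% interval -3.29 to -0.84, edgeR's unadjusted p = 0.00454), the most negative of the 9. It was -1.54 without VHL-KO replicate 4 (adjusted p = 0.0869) and -1.82 without VHL-KO;SETD2-KO replicate 3 (adjusted p = 0.754).

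Anpep, on chromosome 7 at 79821803 to 79848210, encodes aminopeptidase N, which removes neutral residues from the amino end of peptides and converts angiotensin III to angiotensin IV. The VHL-KO libraries held 145, 169 and 298 CPM and the VHL-KO;SETD2-KO libraries 63.4, 77.3 and 74.3 CPM. The second group was tight, at 71.6 ± 7.30 CPM against 204 ± 82.1 CPM (SD, n = 3 each), and the groups did not overlap. Anpep thus had a log2 fold change of -1.51 (standard error 0.44, 95% interval -2.51 to -0.50, edgeR's unadjusted p = 0.0085). Without VHL-KO replicate 4, in which Anpep was 1.90-fold above the mean of replicates 1 and 2, it was -1.13 (adjusted p = 0.0775). Without VHL-KO;SETD2-KO replicate 3 it was -1.55.

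Dpp4, on chromosome 2 at 62330073 to 62412315, encodes dipeptidyl peptidase 4, the serine peptidase that cuts incretins and other peptides after a proline or alanine in the second position. It was at 116, 145 and 17.3 CPM in VHL-KO replicates 1, 2 and 4 and at 256, 165 and 244 CPM in VHL-KO;SETD2-KO replicates 2, 3 and 4. The labels did not overlap, with VHL-KO replicate 4 far below every other library and VHL-KO;SETD2-KO replicate 3 the closest to the VHL-KO range. This gave a log2 fold change of 1.26 (standard error 0.71, 95% interval -0.38 to 2.89, edgeR's unadjusted p = 0.114). Without VHL-KO replicate 4 it was 0.76 (adjusted p = 0.182), and without VHL-KO;SETD2-KO replicate 3 it was 1.43.

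Enpep, on chromosome 3 at 129269177 to 129332749, encodes aminopeptidase A, which takes the acidic first residue off angiotensin II to give angiotensin III. The values were 274, 334 and 70.3 CPM in VHL-KO replicates 1, 2 and 4 and 487, 243 and 434 CPM in VHL-KO;SETD2-KO replicates 2, 3 and 4. VHL-KO;SETD2-KO replicate 3 lay below both VHL-KO replicates 1 and 2, so the groups overlapped, and without it they did not. In the fit without it, 20.2% of all tested genes were higher without overlap. The log2 fold change of Enpep came to 0.78 with all 6 libraries (standard error 0.62, 95% interval -0.65 to 2.21, edgeR's unadjusted p = 0.244). It was 0.35 without VHL-KO replicate 4 and 1.03 without VHL-KO;SETD2-KO replicate 3.

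Mme, on chromosome 3 at 63295211 to 63383713, encodes neprilysin, a zinc endopeptidase that degrades natriuretic peptides, bradykinin and angiotensins. It was at 105, 149 and 13.5 CPM in VHL-KO replicates 1, 2 and 4 and at 113, 129 and 107 CPM in VHL-KO;SETD2-KO replicates 2, 3 and 4. The libraries other than VHL-KO replicate 4 lay between 105 and 149 CPM under either label. The log2 fold change of 0.39 (standard error 0.73, 95% interval -1.30 to 2.07, edgeR's unadjusted p = 0.614) changed sign, to -0.13, without VHL-KO replicate 4 (adjusted p = 0.750). It was 0.31 without VHL-KO;SETD2-KO replicate 3.

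**Figure D1:**
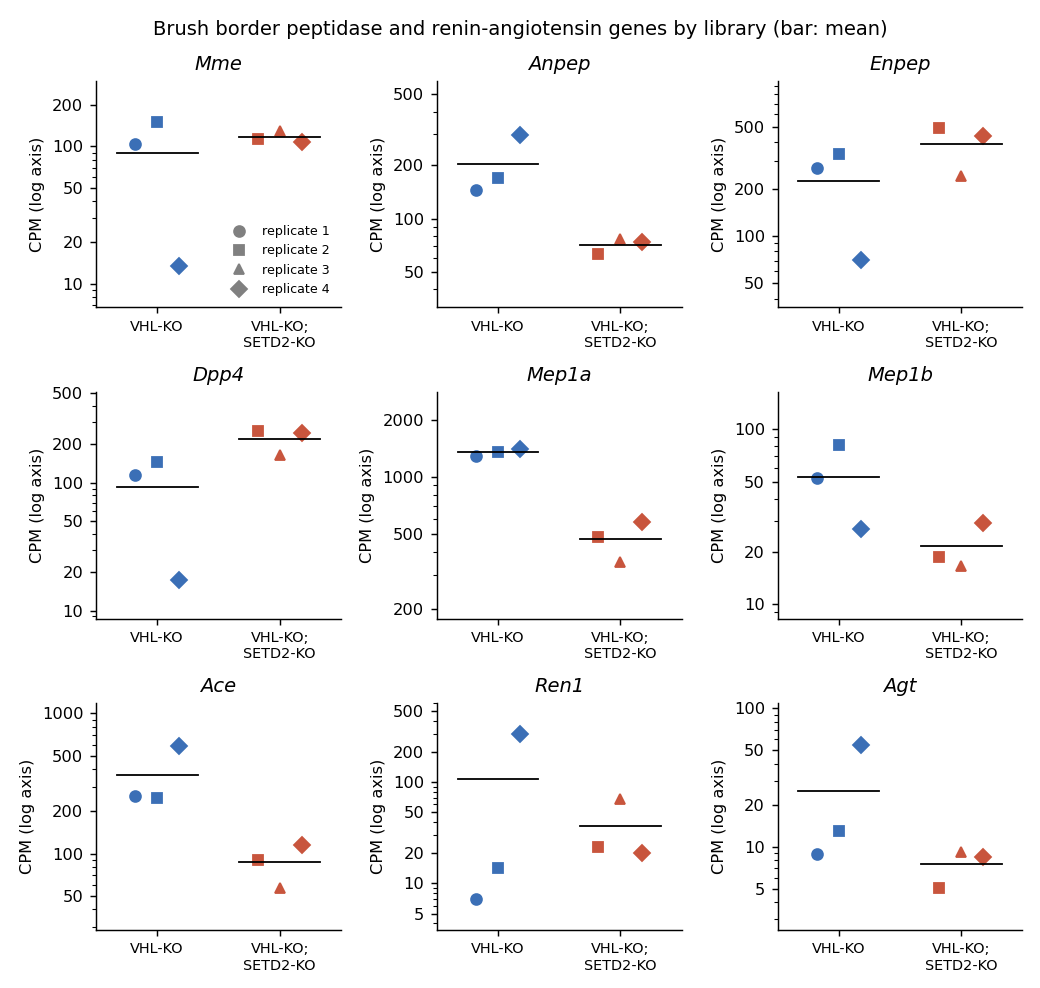
Level of each of the 9 genes by library in TMM-scaled CPM on log axes, with VHL-KO libraries in blue, VHL-KO;SETD2-KO libraries in red, the replicate number as the marker and the group mean as a bar (n = 3 per label). Anpep, Mep1a and Ace lie lower and Dpp4 higher in every VHL-KO;SETD2-KO library, and VHL-KO replicate 4 (blue diamond) lies far below the other libraries for Mme, Enpep and Dpp4 and far above them for Ren1 and Agt.

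The split between aminopeptidase A and dipeptidyl peptidase 4 on one side and aminopeptidase N, meprin alpha and the converting enzyme on the other was also seen as count ratios within each library, for pairs chosen after their values were seen. Dpp4 had 0.798, 0.858 and 0.0581 counts per Anpep count in VHL-KO replicates 1, 2 and 4 and 4.03, 2.13 and 3.29 in VHL-KO;SETD2-KO replicates 2, 3 and 4. Enpep had 1.06, 1.34 and 0.119 counts per Ace count under VHL-KO and 5.44, 4.24 and 3.76 under VHL-KO;SETD2-KO. These ratios separated the labels also when VHL-KO replicate 4 is set aside, since replicates 1 and 2 were below every VHL-KO;SETD2-KO library. The same held for Enpep over Anpep, at 1.89, 1.98 and 0.236 against 7.69, 3.15 and 5.84. Dpp4 over Mep1a was 0.0903, 0.107 and 0.0124 against 0.535, 0.464 and 0.423, and Mme over Ace 0.405, 0.597 and 0.0228 against 1.27, 2.24 and 0.927. For each of these 5 ratios the two-sided exact permutation test gave p = 0.1, the smallest that 3 against 3 libraries allow, and since the pairs were picked for their difference the p-values are no independent support.

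Renin and its substrate were the 2 least abundant members per kilobase of transcript in VHL-KO replicates 1 and 2. Ren1, on chromosome 1 at 133350674 to 133360320, encodes renin, the aspartic protease of juxtaglomerular cells. It was at 6.91, 14.2 and 301 CPM in VHL-KO replicates 1, 2 and 4 and at 23.0, 68.1 and 20.01 CPM in VHL-KO;SETD2-KO replicates 2, 3 and 4. A single library held the top of the range, 28.4-fold above the mean of VHL-KO replicates 1 and 2. The means of 107 ± 168 and 37.0 ± 27.0 CPM (SD, n = 3 each) therefore rest on VHL-KO replicate 4. The log2 fold change was -1.53 with all 6 libraries (standard error 1.27, 95% interval -4.46 to 1.39, edgeR's unadjusted p = 0.262). It was 1.82 without VHL-KO replicate 4 (edgeR's unadjusted p = 0.0326, adjusted p = 0.209), with no overlap. In that fit 20.1% of all tested genes were higher without overlap. Without VHL-KO;SETD2-KO replicate 3, the second highest, it was -2.29. Ren2, the near-identical renin gene that only some mouse strains carry, had 1 count in VHL-KO replicate 4 and 0 in the other libraries.

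Agt, on chromosome 8 at 124556587 to 124569706, encodes angiotensinogen. Its level was 8.91, 13.0 and 54.4 CPM in VHL-KO replicates 1, 2 and 4 and 5.05, 9.24 and 8.47 CPM in VHL-KO;SETD2-KO replicates 2, 3 and 4. The labels overlapped by a small margin, with VHL-KO;SETD2-KO replicate 3 above VHL-KO replicate 1. Agt had a log2 fold change of -1.75 (standard error 0.71, 95% interval -3.38 to -0.11, edgeR's unadjusted p = 0.0389), which was -0.53 without VHL-KO replicate 4 (adjusted p = 0.402). Without VHL-KO;SETD2-KO replicate 3 it was -1.89 with no overlap (adjusted p = 0.754), a fit in which 18.9% of all tested genes were lower without overlap.

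Levels of different genes were compared as CPM per kilobase of the longest coding transcript. Mep1a was the most abundant of the 9 in each of the 6 libraries, at 432 to 470 CPM per kilobase under VHL-KO and 120 to 194 under VHL-KO;SETD2-KO. Under VHL-KO the mean levels of the others ran from Ace (74.7), Ren1 (67.4), Enpep (54.1) and Anpep (53.7) to Mep1b (23.4), Dpp4 (17.6), Agt (13.5) and Mme (11.1) CPM per kilobase. Of these neighbours only Mep1a and Ace, and Anpep and Mep1b, did not overlap over the 3 libraries. Under VHL-KO;SETD2-KO the order was Mep1a (158), Enpep (92.8), Dpp4 (42.0), Ren1 (23.3), Anpep (18.9), Ace (17.8), Mme (14.5), Mep1b (9.41) and Agt (4.01) CPM per kilobase. There the libraries of Dpp4 and Ren1, Ren1 and Anpep, Anpep and Ace, and Ace and Mme overlapped. The place of Ace under VHL-KO rested on replicate 4, where it was at 120 and Enpep at 16.8 CPM per kilobase. In VHL-KO replicates 1 and 2 Enpep (65.4 and 79.9) stood above Ace (52.6 and 51.0), as it did in all 3 VHL-KO;SETD2-KO libraries.

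Part of the spread within the VHL-KO label followed the composition of the transcripts. The difference in log2 CPM between VHL-KO replicate 4 and the mean of replicates 1 and 2 was -3.24 for Mme, -2.91 for Dpp4 and -2.11 for Enpep, the members with the lowest GC content (38.0%, 42.2% and 45.5%). It was -1.32 for Mep1b (46.2%) and 0.08 for Mep1a (48.7%). For Anpep (53.3%), Ren1 (54.7%), Ace (55.6%) and Agt (56.3%) it was 0.92, 4.83, 1.22 and 2.31. Spearman's correlation with GC content was 0.95 across the 9 genes and 0.76 across the 13811 tested genes with a transcript (94.5% of 14611), both as descriptions across genes within the same libraries. With length it was -0.77 and -0.39. The genes that were higher under VHL-KO;SETD2-KO were therefore also those low in VHL-KO replicate 4, and the part of this in their fold changes was not tested beyond the fits without that library and with an offset for GC content and length. With the offset the log2 fold changes were -1.77 for Ace, -1.69 for Mep1a, -1.52 for Mep1b, -1.25 for Anpep, 0.84 for Dpp4 and 0.46 for Enpep. Agt, with the highest GC content of the 9, then came to -0.84, Mme to -0.12 and Ren1 to -0.21.

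**Figure D2:**
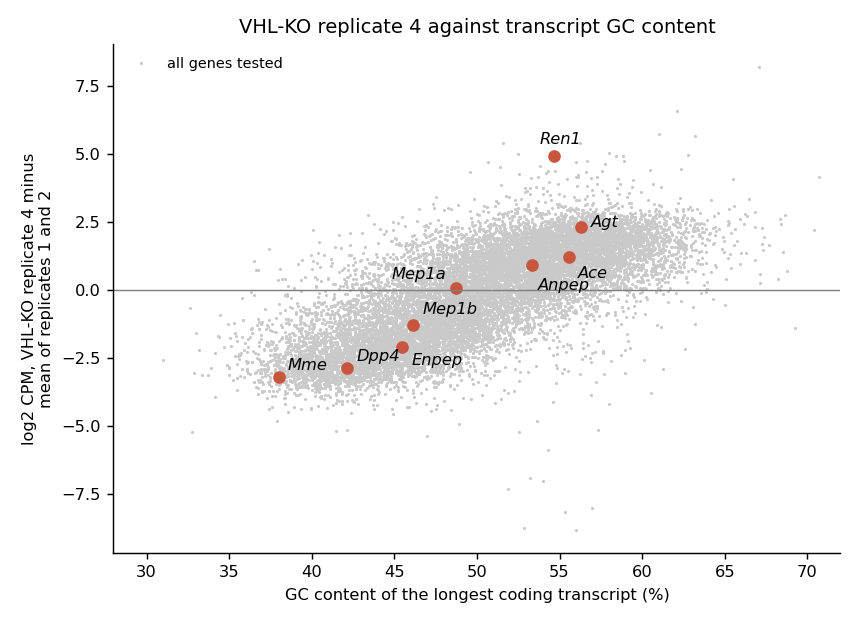
Difference in log2 CPM between VHL-KO replicate 4 and the mean of VHL-KO replicates 1 and 2 against the GC content of the longest coding transcript, with 13811 tested genes in grey and the 9 members in red. The members climb from Mme (38.0% GC, -3.24) to Agt (56.3% GC, 2.31) within the cloud of all genes, and Ren1 lies above it.

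Leaving out the 2 libraries that stood apart, VHL-KO replicate 4 and VHL-KO;SETD2-KO replicate 3, left 2 libraries per label, a choice made after the data were seen. In this fit of 4 libraries edgeR called 4 members lower, Ace, Mep1a and Anpep (adjusted p = 0.00597 each) and Mep1b (0.0142), and 2 higher, Dpp4 (0.00803) and Enpep (0.0318). The log2 fold changes were -1.31, -1.32, -1.19 and -1.48 for the genes called lower and 0.94 and 0.60 for those called higher. The same fit called 10.3% of 14732 genes lower and 9.95% higher, so calls were common in it. Ren1 (1.05, adjusted p = 0.0597), Agt (-0.70, 0.165) and Mme (-0.20, 0.463) were not called. With all 6 libraries weighted by their quality in limma-voom, the weight was 0.0376 for VHL-KO replicate 4, 0.458 for VHL-KO;SETD2-KO replicate 3 and 2.41 to 3.62 for the rest. That fit called Anpep, Mep1a, Mep1b and Ace lower and Dpp4 and Ren1 higher, beside 9.81% of all tested genes lower and 10.6% higher.

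**Figure D3:**
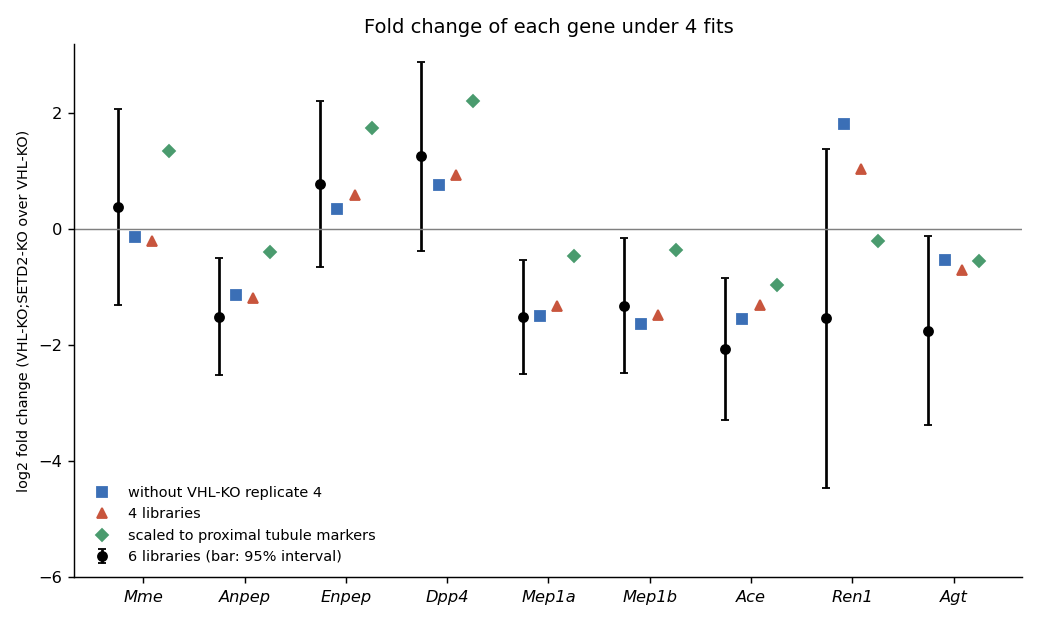
Log2 fold change of VHL-KO;SETD2-KO over VHL-KO for each gene in the fit to 6 libraries (black, with the 95% interval), without VHL-KO replicate 4 (blue), in the 4 libraries without VHL-KO;SETD2-KO replicate 3 as well (red), and scaled to the mean log count of proximal tubule markers (green). Anpep, Mep1a, Mep1b, Ace and Agt stay below 0 and Enpep and Dpp4 above 0 in all 4 fits, while Mme and Ren1 change sign.

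Markers of the proximal tubule moved with the lower peptidases. The 19 markers, all tested and none at 0 in any library, summed to 37040, 33660 and 44010 CPM under VHL-KO and to 15400, 13290 and 17050 CPM under VHL-KO;SETD2-KO. With no overlap, 10 of them were lower and 0 higher, beside 11.0% and 9.62% of all tested genes. Of the 19, 17 had a log2 fold change below 0 and 2, Slc5a12 and Gatm, above 0. Under VHL-KO the largest parts of the sum were Kap (18290, 16190 and 7619 CPM) and Slc34a1 (4979, 4759 and 14210 CPM), which moved in opposite directions in replicate 4. Under VHL-KO;SETD2-KO these were at 6760, 1216 and 6966 CPM and at 2188, 2967 and 2444 CPM. Lrp2, the endocytic receptor megalin, was at 940 to 3384 CPM and 1167 to 1734 CPM, and Hnf4a, a transcription factor of this cell type, at 664 to 986 CPM and 303 to 448 CPM. Podocyte markers summed to 1517 to 2176 CPM and 2078 to 5106 CPM, and endothelial markers to 1462 to 1931 CPM and 1521 to 4531 CPM. Their part in the differences of the peptidases was not tested beyond the following scaling. Scaled to the mean log count of the proximal tubule markers, which moved the median of all genes from 0.01 to 1.07, the log2 fold changes became -0.96 for Ace, -0.47 for Mep1a, -0.39 for Anpep and -0.35 for Mep1b, and 2.21 for Dpp4, 1.74 for Enpep and 1.35 for Mme. On this scale 0 members were lower and 2, Dpp4 and Enpep, were higher at an unadjusted p under 0.05 and 1.5-fold, beside 0.198% of all tested genes lower and 34.1% higher, and none had an adjusted p under 0.05 (0.116 and 0.127 for these 2). Ace and Mep1a were still lower with no overlap, beside 0.616% of all tested genes, and Dpp4, Enpep and Mme were higher with no overlap, beside 58.1%. Being higher on this scale is thus common. Scaled to the summed counts of the markers instead, Ace (-0.72) stayed lower with no overlap, and Mep1a (-0.22), Anpep (-0.14) and Mep1b (-0.0886) overlapped.

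**Figure D4:**
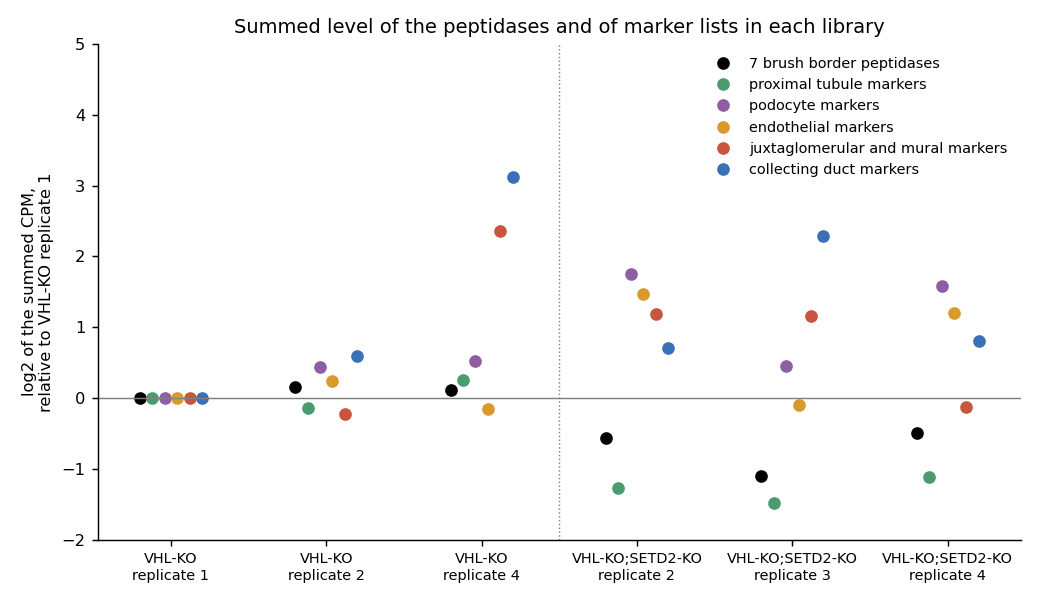
Log2 of the summed CPM of the 7 brush border peptidases and of marker lists in each library, relative to VHL-KO replicate 1. Proximal tubule markers lie lowest in the 3 VHL-KO;SETD2-KO libraries, podocyte and endothelial markers highest in VHL-KO;SETD2-KO replicates 2 and 4, and collecting duct markers highest in VHL-KO replicate 4 and VHL-KO;SETD2-KO replicate 3.

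Ren1 had its highest levels in the libraries where the smooth muscle genes Acta2 and Tagln had theirs. Of 9505 tested genes with a mean log2 CPM of at least 3, the 5 most like Ren1 over the 6 libraries by Pearson's r of log2 CPM were Acta2 (0.9995), Mt1 (0.9971), Fbxl19 (0.9957), Alkbh6 (0.9952) and Tagln (0.9942). Acta2 and Tagln encode smooth muscle actin and transgelin, contractile proteins of arterioles. Acta2 was at 3.76, 6.75 and 104 CPM in VHL-KO replicates 1, 2 and 4 and at 10.6, 30.2 and 9.41 CPM in VHL-KO;SETD2-KO replicates 2, 3 and 4. Tagln was at 3.03, 4.63 and 124 CPM and at 9.25, 35.4 and 8.91 CPM. Both had their 2 highest levels in the libraries where Ren1 was highest, and these 2 libraries shape the correlations. Without VHL-KO replicate 4, Acta2 again came first over the other 5 libraries (0.999), followed by Fabp4, Rps15a-ps7, Phactr1 and Cxxc1. Akr1b7, a gene of renin-producing cells, was at 1.46, 0.925 and 7.39 CPM and at 2.60, 3.27 and 1.51 CPM. The 9 juxtaglomerular and mural markers, Akr1b7 the lowest and none at 0, summed to 98.4 to 591 CPM under VHL-KO and 105 to 263 CPM under VHL-KO;SETD2-KO. They did not all follow Ren1, since Rgs5 was highest in VHL-KO;SETD2-KO replicate 3 (62.2 CPM) and at 22.1 CPM in VHL-KO replicate 4, and Pdgfrb was highest in VHL-KO;SETD2-KO replicate 2 (116 CPM). Their part in the Ren1 difference was not tested. Collecting duct markers, from a segment that also makes some renin, summed to 459 CPM in VHL-KO replicate 4, 258 CPM in VHL-KO;SETD2-KO replicate 3 and 52.9 to 92.9 CPM in the other libraries. In VHL-KO replicate 4 most of that sum was Aqp2 (258 CPM) and Aqp3 (114 CPM), while Atp6v1g3 was lowest there (2.71 CPM).

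**Figure D5:**
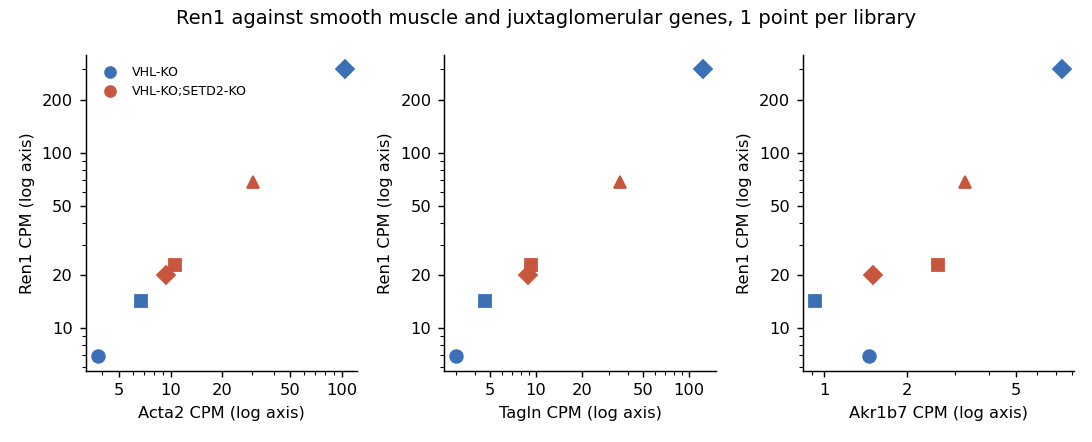
Ren1 against Acta2, Tagln and Akr1b7 in TMM-scaled CPM on log axes, with 1 point per library, colours for the label and marker shapes for the replicate as in the plot of levels by library. Ren1 and Acta2 keep the same order across the 6 libraries, with VHL-KO replicate 4 at the top (301 and 104 CPM) and VHL-KO;SETD2-KO replicate 3 next (68.1 and 30.2 CPM).

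For the 7 peptidases the mean of the standardized log2 CPM was used as a common pattern. The 5 genes most like it over the 6 libraries were Etnppl (Pearson's r = 0.9945), Plekha8 (0.9841), Frrs1 (0.9828), Mapkap1 (0.98) and Nat8f2 (0.9759). The peptidases do not share 1 pattern, since Dpp4, Enpep and Mme were low and Ace and Anpep high in VHL-KO replicate 4, so likeness to their mean describes no single member. Over the 5 libraries without VHL-KO replicate 4 the list was made of other genes, Nhlrc3 (0.9966), Lss (0.9966), Ppp1r15b (0.9962), Rpap1 (0.9961) and Mast3 (0.995). Of the genes named over 6 libraries, Etnppl breaks down phosphoethanolamine and Nat8f2 belongs to a family of acetyltransferases with high levels in kidney.

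The other renin-angiotensin genes held no gene past the unadjusted rule. Of 19 listed, 11 passed the filter, and their median log2 fold change was -0.17. At an unadjusted p under 0.05 and 1.5-fold, 0 were higher and 0 lower, beside 2.65% and 4.68% of all tested genes. The labels did not overlap for 2, both lower, beside 11.0% of all tested genes lower without overlap. The 3 most abundant in CPM were Klk1, the kallikrein that releases kinins (log2 fold change 0.83, standard error 0.70, edgeR's adjusted p = 0.702), Ctsa, a lysosomal carboxypeptidase (-1.22, standard error 0.62, adjusted p = 0.625), and Atp6ap2, the prorenin receptor (0.68, standard error 0.62, adjusted p = 0.725).

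The last list held other hydrolases of the brush border and Tmem27 (collectrin), a membrane protein that is no hydrolase and carries amino acid transporters to the membrane. Of 12 listed, 11 passed the filter, and the median log2 fold change was -0.62. The labels did not overlap for 2 of them, both lower, beside 11.0% of all tested genes lower without overlap. At an unadjusted p under 0.05 and 1.5-fold, 3 were lower and 0 higher, beside 4.68% and 2.65% of all tested genes. The 3 were Ggt1, the gamma-glutamyl transferase that starts glutathione breakdown (log2 fold change -2.27, standard error 0.71), Treh, which splits trehalose (-2.38, standard error 0.67), and Dpep1, which cuts dipeptides (-1.92, standard error 0.83), each with edgeR's adjusted p = 0.625. In the 4 libraries they were at -1.11, -1.15 and -0.52. Among the 3 with the highest mean CPM, Tmem27 gave -0.11 (standard error 0.58, adjusted p = 0.953) and Alpl, alkaline phosphatase, -0.62 (standard error 0.66, adjusted p = 0.759), and the third was Ggt1. Ggt1 and Treh were, like Ace and Anpep, highest in VHL-KO replicate 4, at 4161 and 333 CPM against 838 to 920 and 86.3 to 91.8 CPM in VHL-KO replicates 1 and 2.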

How the data were processed

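PTECs of 6 mice (3 per genotype label) were profiled by paired-end RNA-seq with a directional kit. The authors deposited raw counts per gene symbol. Per the submitters' processing notes, reads were aligned with HISAT2 2.0.4 to GRCm38; the counting program, annotation and use of strand are not given in the sources used here. Groups came from the labels, the 3 mice per group from the study's text. No column of the table was left out (0 unused).

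Libraries held between 11168552 and 17883466 counts, and the floor of 3 counts covers counting error only. TMM factors, filterByExpr and the quasi-likelihood test of edgeR 4.0.16 (R 4.3.3) were applied to 14611 of 46095 genes, with genotype as the single term and Benjamini-Hochberg adjustment over all tested genes. Fold changes are unshrunk and VHL-KO;SETD2-KO over VHL-KO. Log2 CPM used a prior count of 2. DESeq2 1.42.0, used in the study, and limma 3.58.1 were alternatives, with other scalings, filters, a replicate block, leaving out each library, a fit to 4 libraries and an offset for GC content and length. The fits were tested on simulated data.

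Lengths and GC content came from GENCODE vM21, and gene coordinates and promoters from RefSeq. The members, lists and tests were chosen with earlier results of these data known. All 9 members were named, with list genes past the unadjusted rule, the 3 most abundant of each list, and the 5 genes most like Ren1 and the peptidase mean. Likeness was Pearson's r of log2 CPM over 6 and over 5 libraries. Values of 1 listed gene are not reported here.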

Additional observations from a re-analysis of the deposited data

How the results depend on the processing

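Ace, Agt, Anpep, Mep1a and Mep1b stayed lower and Dpp4 and Enpep higher in all 21 alternatives. Mme and Ren1 each changed sign in 6. Mme came to -0.16 with limma-voom sample weights, -0.13 without VHL-KO replicate 4 in edgeR and -0.13 in DESeq2, -0.20 in the 4 libraries (VHL-KO replicate 4 and VHL-KO;SETD2-KO replicate 3 left out), -0.12 with the GC and length offset and -0.43 with that offset and the replicate block. Ren1 came to 0.0653 scaled to summed proximal tubule markers, 0.0256 with limma-voom, 1.24 with sample weights, 1.82 without VHL-KO replicate 4 in edgeR and 1.80 in DESeq2, and 1.05 in the 4 libraries. With each library left out in turn, Mme ranged from -0.13 to 0.98 and Ren1 from -2.29 to 1.82.

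The number of members lower at an adjusted p under 0.05 was 0 in the main fit and 3 with DESeq2, beside 3.87% of the 1292 genes given an adjusted p there. It was 4 with sample weights (9.81% of all tested genes) and 4 in the 4 libraries (10.3%). DESeq2 without VHL-KO replicate 4 also gave 4 (5.62% of the 13834 genes given an adjusted p). The number higher was 2 with sample weights (10.6%), 1 with DESeq2 without VHL-KO replicate 4 (3.95% of those 13834) and 2 in the 4 libraries (9.95%). Leaving out each library in turn gave 0 for both. At an unadjusted p and 1.5-fold, 5 were lower (4.68% of all genes), against 3 with library totals (2.11%), 0 with scaling to summed proximal tubule markers (0.0753%) or to their mean log count (0.198%), 0 with the replicate block (0.370%) and 3 to 4 with a library left out (1.37% to 7.14%). The number higher, 0 in the main fit, was 2 with scaling to summed markers (49.7% of all genes) or to their mean log count (34.1%), 2 with sample weights (14.5%), 2 with DESeq2 without VHL-KO replicate 4 (9.50%), 3 in the 4 libraries (13.4%), 1 with the GC and length offset (6.39%) and 0 to 2 with a library left out (1.19% to 8.29%). Without overlap, 3 were lower (11.0%), against 1 scaled to summed markers (0.301%), 5 in the 4 libraries (32.4%) and 3 to 4 with a library left out (12.1% to 21.4%). The number higher was 1 (9.62%), against 3 scaled to summed markers (65.6%) or to their mean log count (58.1%), 3 in the 4 libraries (32.7%) and 1 to 2 with a library left out (11.6% to 20.2%). Fewer libraries overlap less by construction, so these counts are read against the shares. The median of -1.51 over the 9 members moved to -0.0886 scaled to summed markers, -0.35 to their mean log count, -0.62 with sample weights, -0.54 with DESeq2 without VHL-KO replicate 4, -0.70 in the 4 libraries and -0.84 with the offset. It ranged from -1.53 to -0.53 with a library left out, the latter without VHL-KO replicate 4. The cause of these shifts was not tested. The median over all genes was 0.29 with library totals, 1.33 scaled to summed markers and 1.07 to their mean log count.

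Replicate numbers 2 and 4 occur under both labels. The deviations of same-numbered libraries from their group means correlated at 0.16 for number 2 and -0.32 for number 4 over 14611 genes. VHL-KO replicate 4, which stood apart, enters the VHL-KO mean. These values therefore cannot tell whether same-numbered libraries share more than a number. With the replicate block the median over the members was -1.39, and 147 genes had an unadjusted p under 0.05 in place of 1071. The scaling to the mean log count of markers, DESeq2 without VHL-KO replicate 4, the 4 libraries and the offset were chosen after the data were seen. The 9 members had at least 95 counts in every library, so counting error limits them less than the spread between libraries does.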
